A study of Mus musculus with 6 samples.

Results

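The autophagy machinery and its cargo receptors were followed in N9 microglia, an immortalized microglial cell line from mouse brain, as 39 genes taken by symbol from a table of read counts for 54532 genes. All 39 were in the table, and all 39 passed the filter on low counts that left 12296 genes for testing. RNA was sequenced from 3 libraries of untreated cells (control) and from 3 libraries of cells given lipopolysaccharide (LPS), a bacterial outer membrane component, at 1 µg/ml for 6 h. Both groups are the same cell line in the same medium, and the source of the replicates (separate cultures or repeated samples of 1 culture) is not stated, so that p-values measure the spread between these libraries, which may be technical. RNA from many cells was pooled in each library, and a change in RNA per cell cannot be told apart from a change in the share of cells that carry it.

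Autophagy is the route by which a cell encloses cytoplasm in a double membrane, the autophagosome, and delivers it to lysosomes. The ULK1 kinase complex starts the process, a class III phosphatidylinositol 3-kinase marks the growing membrane, ATG9 and ATG2 proteins bring lipid to it, and a ubiquitin-like conjugation system attaches the small ATG8 proteins (LC3 and GABARAP) to it. Cargo receptors bind ATG8 proteins on one side and ubiquitinated proteins, bacteria or mitochondria on the other, and are themselves degraded with their cargo. In macrophages and microglia the pathway is known for clearing intracellular bacteria and damaged mitochondria and for restraining inflammasome activation.

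LPS-stimulated N9 microglia versus control cells showed a change in 13 of the 39 genes at an adjusted p-value under 0.05 in edgeR's quasi-likelihood test, with 9 higher and 4 lower. The higher genes were the cargo receptors Sqstm1, Optn, Nbr1, Bnip3l and Tax1bp1, the initiation factor Atg13, the conjugation factors Atg4a and Atg16l1, and the ATG8 gene Gabarapl1. The lower genes were the kinase Ulk1, the membrane factors Atg9a and Wipi1, and the mitochondrial receptor Bnip3. Sqstm1 alone more than doubled, and it rose 2.31-fold. No member reached the fold threshold that the study used for differentially expressed genes (DEG).

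The share of members that changed, 33.3%, was close to the 34.3% of all tested genes that changed. Of the members 23.1% were higher, beside 18.7% of all tested genes, and 10.3% were lower, beside 15.7%. The members were well covered, with mean counts between 95 and 11662, and 39.4% of the 9654 tested genes that average 100 counts or more changed. The changes of the members were small. The median absolute log2 fold change was 0.08 over the members, 0.17 over all tested genes and 0.14 over those that average 100 counts or more, and 20 members moved by at most 0.1. With an absolute log2 fold change of at least 0.5 added to the adjusted p-value, 2 members (5.13%) and 12% of all tested genes remained. With the DEG rule (absolute log2 fold change over 1.5) 2.65% of all tested genes and 0 members remained in edgeR, also 0 in DESeq2 and 0 at an unadjusted p under 0.05 with that fold, while 16 members had an unadjusted p under 0.05. Counts scaled to library size (CPM) of the 3 LPS and the 3 control libraries did not overlap for 17 members (43.6%), beside 45.3% of all tested genes.

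**Figure D1:**
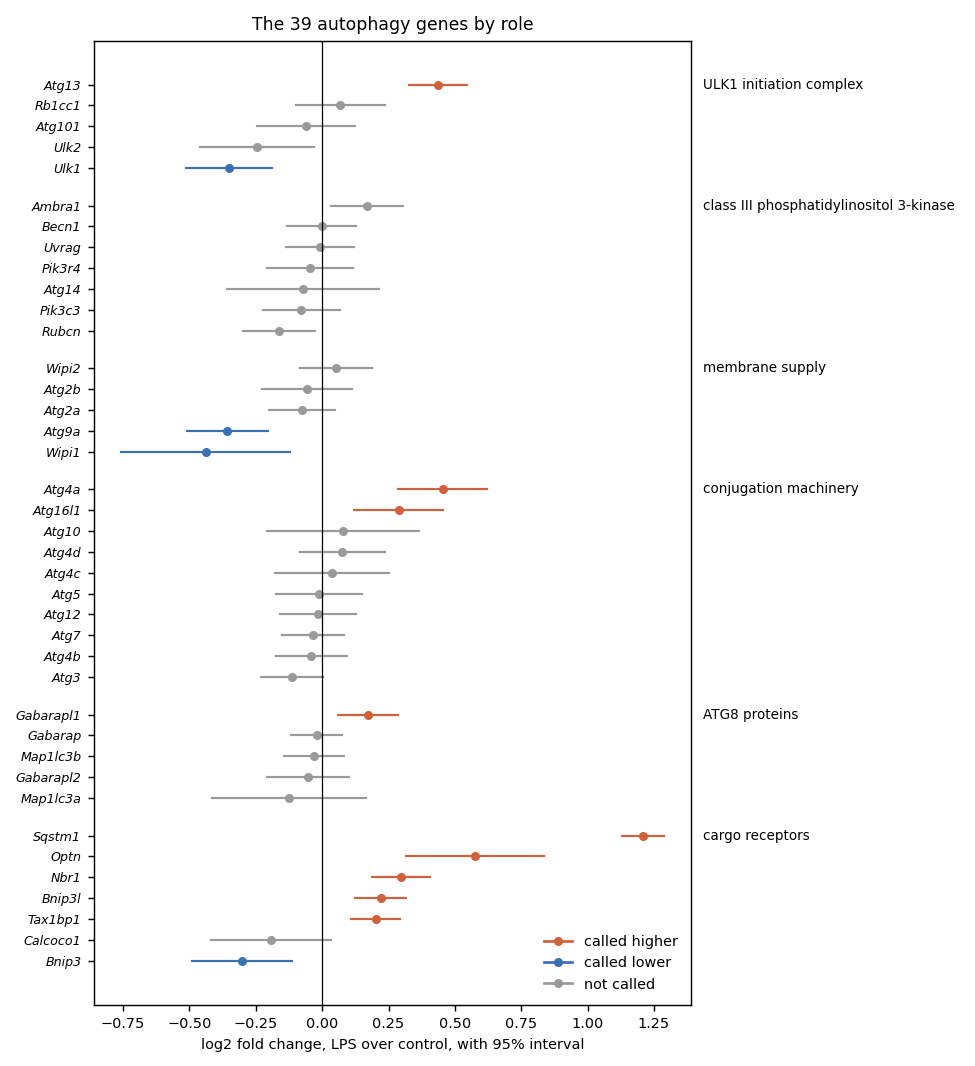
The log2 fold change of LPS over control (horizontal axis) with its 95% interval is plotted for each of the 39 genes, grouped by role, with genes called higher in orange, called lower in blue and not called in grey. Sqstm1 stands at 1.21, and the 26 genes not called lie between -0.25 and 0.17.

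The cargo receptors were the role with the most changed genes. Of 7 receptors, 5 rose, Bnip3 fell and Calcoco1 did not pass the test, and the median log2 fold change was 0.22. The LPS and control libraries did not overlap for any of the 7. Over all tested genes 34.3% changed and 45.3% had groups that did not overlap, and no test compared the receptors with other genes. Sqstm1 encodes p62, which binds ubiquitinated proteins, gathers them into bodies and also holds KEAP1, the inhibitor of the transcription factor NRF2. It was counted 7504, 7223 and 7798 times in the control libraries and 15159, 16214 and 16075 times in the LPS libraries (chr11:50199366-50210827, minus strand). Every LPS library was far above every control library. The level was 422 ± 14.5 CPM in control cells and 976 ± 14.2 CPM with LPS (mean ± SD, n = 3 each), and the log2 fold change was 1.21 (SE 0.04, adjusted p = 1.83e-12 in edgeR). Per kb of gene length Sqstm1 was already the most abundant of the 39 transcripts in control cells, at 126 ± 4.32 CPM per kb, and reached 291 ± 4.23 CPM per kb with LPS.

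Optn encodes optineurin, a ubiquitin-binding receptor that carries bacteria and mitochondria to autophagosomes and is phosphorylated by the kinase TBK1. It was a rare transcript. The counts were 118, 139 and 142 in control and 163, 186 and 193 with LPS (chr2:5020642-5064051, minus strand), so that the groups did not overlap. Optn rose from 7.47 ± 0.517 CPM in control to 11.1 ± 0.731 CPM with LPS (SD over 3 libraries), and its log2 fold change was 0.58 (SE 0.12, adjusted p = 0.00178, edgeR).

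Sqstm1 and Optn were the only members called with an absolute log2 fold change of at least 0.5, and their promoters follow, from RefSeq (GRCm38.p6), each 5′ to 3′ on the gene's strand, from 250 bases before to 50 bases after the start site. The Sqstm1 window is chr11:50210771-50211070 (minus strand) and the Optn window is chr2:5064068-5064367 (minus strand). Promoters of 2 further changed receptors, selected after their values and motifs were known, are shown for their matches. They are the Bnip3 window chr7:138909457-138909756 (minus strand), with an E box in capitals, and the second Nbr1 window chr11:101552404-101552703 (plus strand), with a STAT match and an ISRE core in capitals in this order.
Sqstm1: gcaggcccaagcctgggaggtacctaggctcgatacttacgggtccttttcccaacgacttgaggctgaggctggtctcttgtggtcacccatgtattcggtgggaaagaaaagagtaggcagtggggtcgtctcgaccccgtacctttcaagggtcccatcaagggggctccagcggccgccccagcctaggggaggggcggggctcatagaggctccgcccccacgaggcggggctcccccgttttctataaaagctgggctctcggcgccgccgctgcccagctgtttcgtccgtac
Optn: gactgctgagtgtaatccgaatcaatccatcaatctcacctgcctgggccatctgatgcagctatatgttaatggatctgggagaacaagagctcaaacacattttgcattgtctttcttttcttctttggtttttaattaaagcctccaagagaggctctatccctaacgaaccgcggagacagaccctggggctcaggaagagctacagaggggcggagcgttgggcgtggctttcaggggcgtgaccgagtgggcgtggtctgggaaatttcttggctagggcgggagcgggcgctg
Bnip3: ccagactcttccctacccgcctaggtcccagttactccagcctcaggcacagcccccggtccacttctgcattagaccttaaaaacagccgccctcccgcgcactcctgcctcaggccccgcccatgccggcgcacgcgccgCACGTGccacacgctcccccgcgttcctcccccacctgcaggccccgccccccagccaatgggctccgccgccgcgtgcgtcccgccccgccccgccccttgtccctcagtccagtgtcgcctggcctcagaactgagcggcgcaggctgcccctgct
Nbr1: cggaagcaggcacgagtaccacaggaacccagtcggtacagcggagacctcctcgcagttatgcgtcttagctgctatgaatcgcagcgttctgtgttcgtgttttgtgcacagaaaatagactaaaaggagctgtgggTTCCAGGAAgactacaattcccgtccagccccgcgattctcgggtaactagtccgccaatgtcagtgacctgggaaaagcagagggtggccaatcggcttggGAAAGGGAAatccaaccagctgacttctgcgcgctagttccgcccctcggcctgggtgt

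In these 300 bases 6 motifs were searched on both strands. They were the antioxidant response element core TGACNNNGC, the E box CACGTG, the NF-kappa B motif GGGANTTTC, the CRE TGACGTCA, the STAT motif TTCNNNGAA and the ISRE core GAAANNGAA. The Sqstm1 and Optn windows held none of these letters, and neither did the first Nbr1 window (chr11:101551857-101552156, plus strand, not shown). Member promoters on chromosome 18, which holds Pik3c3 and Atg12, were left out. RefSeq gave 37 promoters on other chromosomes for 32 of the members, among them 11 of the 13 changed genes. The E box was in 6 of the 37 (16.2%), beside 7.15% of all 32851 promoters of this length, namely those of Atg14, Atg3, Atg5, Atg7, Rubcn and Bnip3, of which Bnip3 alone changed. The antioxidant response element core was in 10.8% of the member promoters and 12.4% of all, with Atg13 and Tax1bp1 among the 4 members that held it. The STAT motif was in 10.8% beside 8.3%, the ISRE core in 8.11% beside 8.56%, the CRE in 2.7% beside 1.79%, and the NF-kappa B motif in 0 of the 37 beside 1.11%. The member promoters had a median GC content of 60.0%, and all promoters 52.7%. A match is a description of the letters and not of binding.

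The other changed receptors moved less, and their values by library were singled out after they had been seen. Nbr1, a relative of p62 that also binds ubiquitin, was at 63.5, 67.3 and 68.1 CPM in control and at 78.2, 82.4 and 83.8 CPM with LPS, a log2 fold change of 0.30 (SE 0.05, adjusted p = 3.69e-04). Tax1bp1, a receptor for bacteria and protein aggregates that also restrains NF-kappa B signalling, was at 220, 228 and 223 CPM in control and at 267, 252 and 251 CPM with LPS, a log2 fold change of 0.20 (adjusted p = 0.0021), and its call was lost with total counts in place of TMM factors (0.10, adjusted p = 0.07). Both were higher in every LPS library than in any control library. Bnip3 and Bnip3l (NIX) are paired receptors in the outer mitochondrial membrane that mark mitochondria for autophagy, and they moved in opposite directions. Bnip3l was at 103, 98.4 and 102 CPM in control and at 120, 116 and 117 CPM with LPS, a log2 fold change of 0.22 (SE 0.04, adjusted p = 0.00131). Bnip3 was at 39.1, 30.7 and 36.2 CPM in control and at 28.5, 29.8 and 27.6 CPM with LPS, and fell by 0.30 on the log2 scale (SE 0.09, adjusted p = 0.0151). Control replicate 2 of Bnip3 lay closer to the LPS libraries than to the other controls. The fall of Bnip3 lost its call without control replicate 1, without control replicate 3 or without LPS replicate 3 (log2 fold changes -0.24, -0.29 and -0.28), with a highest adjusted p of 0.057. Calcoco1, related to the bacterial receptor NDP52, was at 12.2 ± 0.512 CPM in control and 10.7 ± 0.23 CPM with LPS (adjusted p = 0.183), with all LPS libraries below all controls.

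**Figure D2:**
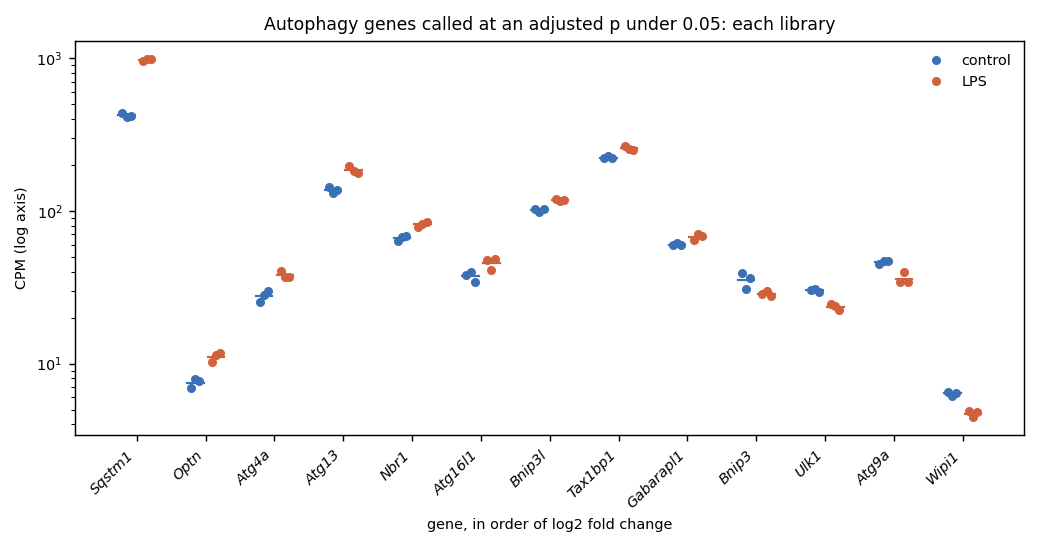
Each point is the CPM of 1 library (vertical log axis) for the 13 genes with an adjusted p under 0.05, in order of log2 fold change, with control in blue, LPS in orange and a line at the mean of 3. The groups are far apart for Sqstm1, at 422 and 976 CPM, and lie close together for Gabarapl1, at 60.1 and 67.7 CPM.

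The ATG8 proteins are the small ubiquitin-like proteins that are joined to phosphatidylethanolamine on the autophagosome membrane and bind the receptors. Of the 5 ATG8 genes Gabarapl1 rose and the other 4 did not pass the test, where 34.3% of all tested genes changed. Gabarap was counted 2998, 3046 and 3313 times in control and 2822, 2724 and 2855 times with LPS. After scaling the groups overlapped, at 175 ± 2.79 and 173 ± 6.42 CPM, and the log2 fold change was -0.02 (95% interval -0.12 to 0.08). Map1lc3b, whose product LC3B is the usual marker of autophagosomes, was counted 1426, 1441 and 1710 times in control and 1321, 1366 and 1392 times with LPS. Its log2 fold change was -0.03 (SE 0.05, adjusted p = 0.712), with a 95% interval from -0.14 to 0.08. Gabarapl2, also known as GATE-16, was counted 787, 694 and 770 times in control and 683, 653 and 640 times with LPS (log2 fold change -0.05, SE 0.07, adjusted p = 0.621). Map1lc3a was the least counted, with 172, 139 and 151 counts in control and 118, 136 and 133 counts with LPS (log2 fold change -0.12, SE 0.14, adjusted p = 0.532). For these 4 genes the normalized libraries of both groups overlapped, and the 95% intervals ran from -0.41 to 0.17 at most.

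Gabarapl1 was counted 1015, 1085 and 1107 times in control and 1018, 1150 and 1124 times with LPS. The raw counts overlapped, and after TMM scaling the groups were at 60.1 ± 1.22 and 67.7 ± 2.88 CPM without overlap, a log2 fold change of 0.17 (SE 0.05, adjusted p = 0.0205, edgeR). This call was lost in DESeq2 (log2 fold change 0.16, adjusted p = 0.0756), with total counts in place of TMM factors (log2 fold change 0.07, adjusted p = 0.291), and when control replicate 1, control replicate 3, LPS replicate 2 or LPS replicate 3 was left out (highest adjusted p 0.0972). Over the 6 fits with 1 library left out the log2 fold change stayed between 0.15 and 0.21. Per kb of gene length, Gabarap made up most of the ATG8 transcripts, with 58.7 ± 0.669% of the summed CPM per kb in control and 57.6 ± 1.25% with LPS (SD, n = 3). Gabarapl1 followed with 18.5 ± 0.698% in control and 20.7 ± 1.18% with LPS. Gabarapl2 held 11.2 ± 0.75% and 10.7 ± 0.503%, Map1lc3b 7.04 ± 0.402% and 6.86 ± 0.0984%, and Map1lc3a 4.54 ± 0.568% and 4.14 ± 0.28%. The order of the 5 genes was the same in each of the 6 libraries. These shares rest on the gene lengths of the count table, such as 7517 bases for Map1lc3b and 2013 for Gabarapl1. Of the summed CPM without division by length, Gabarap took 47.1 ± 0.372% in control, Map1lc3b 23 ± 1.08% and Gabarapl1 16.2 ± 0.673%.

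**Figure D3:**
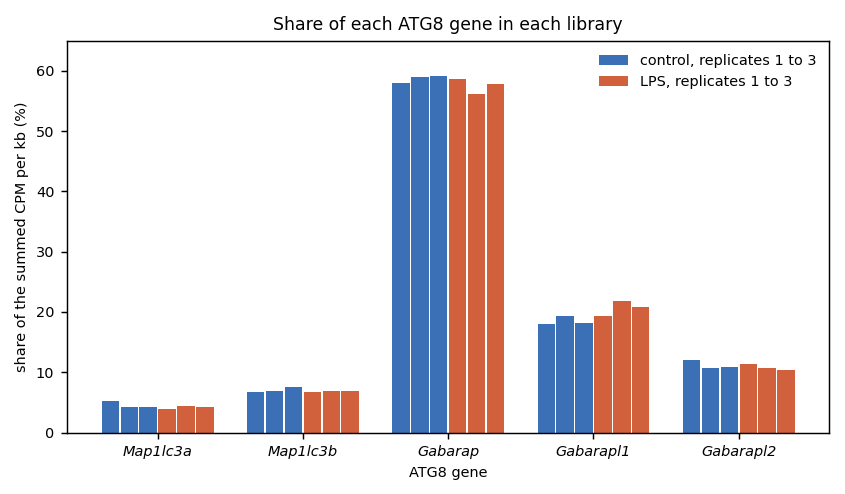
Bars give the share of each ATG8 gene in the summed CPM per kb of the 5 ATG8 genes (vertical axis, percent) in each of the 3 control (blue) and 3 LPS (orange) libraries. Gabarap holds between 56.2% and 59.2% in every library, and the Gabarapl1 share is 18% to 19.3% in control and 19.4% to 21.8% with LPS.

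The conjugation machinery activates ATG8 proteins and joins them to lipid. Of its 10 genes, 2 rose and 8 did not pass the test, where 18.7% of all tested genes were higher and 15.7% lower. Atg4a, one of the cysteine proteases that trim ATG8 proteins and release them from membranes, was at 25.4, 28.1 and 29.7 CPM in control and at 40.4, 37.0 and 36.7 CPM with LPS. Every LPS library was above every control, and the log2 fold change was 0.45 (SE 0.08, adjusted p = 3.45e-04). Its relatives Atg4b, Atg4c and Atg4d had log2 fold changes of -0.04, 0.04 and 0.08, with adjusted p-values of 0.665, 0.813 and 0.48. Atg16l1, the scaffold that places the conjugation complex on the membrane, was at 38.2, 39.5 and 34.4 CPM in control and at 47.9, 40.7 and 48.2 CPM with LPS (log2 fold change 0.29, SE 0.08, adjusted p = 0.0107). LPS replicate 2 lay near the control libraries. The Atg16l1 call was lost without control replicate 3 or without LPS replicate 3 (log2 fold changes 0.22 and 0.25, highest adjusted p 0.0739) and with total counts in place of TMM factors (0.19, adjusted p = 0.0726).

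The remaining conjugation genes stayed near their control level. Atg7, the E1-like enzyme of both conjugation reactions, was at 104 ± 7.59 CPM in control and 102 ± 3.21 CPM with LPS. Atg5 and Atg12, whose products are joined to each other and act with ATG16L1, had log2 fold changes of -0.01 and -0.02. Atg10, the E2-like enzyme that joins ATG12 to ATG5, was rare, at 7.72 ± 0.617 and 8.17 ± 0.798 CPM. Atg3, the E2-like enzyme for ATG8 proteins, was at 53.1 ± 0.9 CPM in control and 49.1 ± 0.853 CPM with LPS, with all LPS libraries below all controls and an adjusted p of 0.122. Over the 8 genes that did not pass the test, the log2 fold changes lay between -0.11 and 0.08, and the 95% intervals between -0.23 and 0.37.

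Of the 5 genes of the ULK1 initiation complex, which receives nutrient and energy signals, 1 rose and 1 fell. Among all tested genes 18.7% were higher and 15.7% lower. Atg13, the adaptor that binds the ULK kinases and the scaffold FIP200, was at 142, 131 and 136 CPM in control and at 196, 183 and 176 CPM with LPS. The groups were well apart, with a log2 fold change of 0.44 (SE 0.05, adjusted p = 7.95e-06), and Atg13 ranked just after Sqstm1 and Gabarap in control level per kb, at 31.2 ± 1.23 CPM per kb. Ulk1, the kinase itself, was at 30.1, 30.9 and 29.4 CPM in control and at 24.4, 23.9 and 22.5 CPM with LPS. All LPS libraries were below all controls, and Ulk1 fell by 0.35 on the log2 scale (SE 0.08, adjusted p = 0.00203). The related kinase Ulk2 had a log2 fold change of -0.25 (SE 0.10, adjusted p = 0.0751) with overlapping libraries. Ulk2 passed the threshold without control replicate 1 (log2 fold change -0.33, adjusted p = 0.0215), and its log2 fold change was -0.08 without control replicates 2 and 3. Rb1cc1, which encodes FIP200, had a log2 fold change of 0.07 (adjusted p = 0.551), and Atg101, which stabilizes ATG13, one of -0.06 (adjusted p = 0.631).

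Membrane supply held 2 genes that fell among its 5, where 15.7% of all tested genes were lower. Atg9a, the lipid scramblase carried on the vesicles that seed the autophagosome, was at 44.5, 47.1 and 46.6 CPM in control and at 34.0, 39.6 and 34.3 CPM with LPS, and fell by 0.36 on the log2 scale (SE 0.07, adjusted p = 0.00121). Wipi1, which binds the phosphatidylinositol 3-phosphate made by the class III kinase, was the least abundant member per kb, at 1.45 ± 0.0426 CPM per kb in control, and was counted 112, 109 and 120 times in control and 77, 73 and 79 times with LPS. The groups did not overlap for either gene. Wipi1 fell by 0.44 on the log2 scale (SE 0.15, adjusted p = 0.0334), and its call was lost whenever any 1 of the 6 libraries was left out (log2 fold changes -0.47 to -0.40, adjusted p up to 0.095), in DESeq2 (-0.45, adjusted p = 0.133) and without the filter on low counts (-0.45, adjusted p = 0.053). Wipi2, the relative that recruits ATG16L1, had a log2 fold change of 0.05, and the lipid transfer proteins Atg2a and Atg2b had -0.08 and -0.06, each with an adjusted p of at least 0.352.

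None of the 7 genes of the class III phosphatidylinositol 3-kinase passed the adjusted threshold in edgeR or in DESeq2, although Ambra1 and Rubcn came close. Among all tested genes 34.3% passed it in edgeR and 25.8% in DESeq2. The catalytic subunit Pik3c3 (VPS34) had a log2 fold change of -0.08, the regulatory subunit Pik3r4 (VPS15) -0.04, and Becn1 (Beclin 1) 0.00, at 54.5 ± 2.73 CPM in control and 54.4 ± 2.53 CPM with LPS. Atg14 and Uvrag, which direct the kinase to autophagosomes and to endosomes, had -0.07 and -0.01. Ambra1, a positive regulator, was at 44.3, 48.8 and 44.8 CPM in control and at 52.0, 48.9 and 54.1 CPM with LPS (log2 fold change 0.17, SE 0.06, adjusted p = 0.0522). Rubcn (Rubicon), which inhibits the UVRAG form, was at 42.7, 42.5 and 40.8 CPM in control and at 37.2, 36.3 and 39 CPM with LPS (log2 fold change -0.16, SE 0.06, adjusted p = 0.0589). The libraries of these 2 genes did not overlap between groups, and Ambra1 passed the threshold with robust dispersion, without control replicate 2 and without LPS replicate 2.

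Levels per kb of gene length spanned from Sqstm1 and Gabarap (95.1 ± 1.51 CPM per kb in control) at the top to Rb1cc1 and Wipi1 at the bottom. Between Sqstm1 and Gabarap the control libraries were apart by more than their SD. Atg13 and Gabarapl1 (29.9 ± 0.608 CPM per kb) were neighbours within about 1 SD of each other in control, and so were Bnip3 (15.6 ± 1.87) and Atg5 (15.4 ± 0.303). With LPS, Sqstm1 stood further above Gabarap, which was at 93.8 ± 3.48 CPM per kb.

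**Figure D4:**
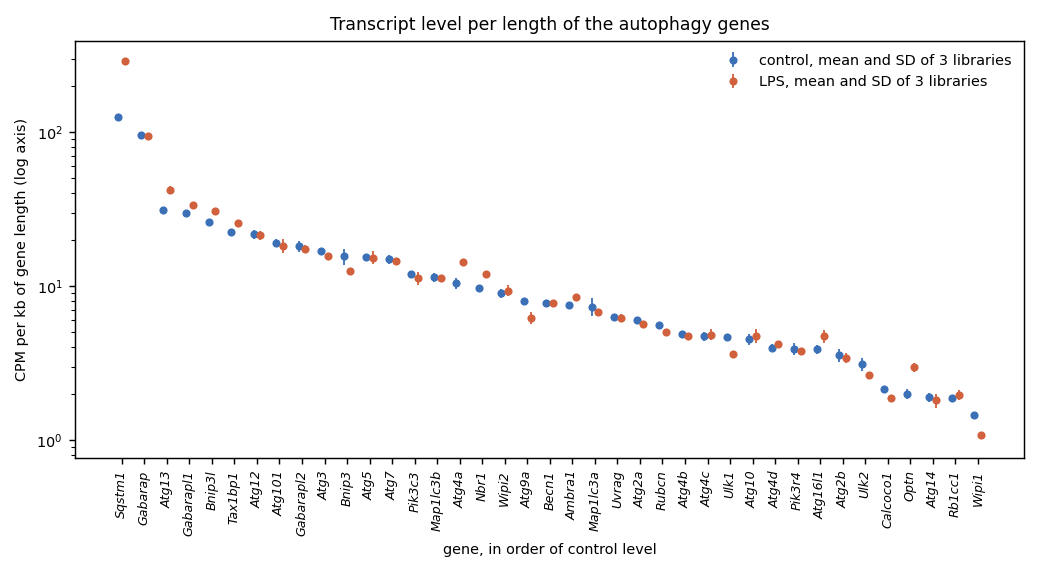
The mean CPM per kb of gene length (vertical log axis) with its SD over 3 libraries is plotted for the 39 genes in order of their control level, control in blue and LPS in orange. Sqstm1 moves from 126 to 291 CPM per kb while Gabarap, next in order, is at 95.1 and 93.8.

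Beyond the 39 genes, 69 other genes of the pathway were read from the same fit. Calcoco2, which encodes the receptor NDP52, and Ccpg1 had 0 counts in every library, where 3 counts are 0.161 to 0.19 CPM, and 67 were tested. Of these 25 changed (37.3%, beside 34.3% of all tested genes), 11 higher (16.4%, beside 18.7%) and 14 lower (20.9%, beside 15.7%). Irgm1, an interferon-inducible GTPase that acts in autophagy of intracellular bacteria, was counted 433, 465 and 492 times in control and 3915, 3923 and 3610 times with LPS, a 9.05-fold rise (log2 fold change 3.18, SE 0.06, adjusted p = 5.85e-15). No other gene of the list rose by 0.5 or more on the log2 scale. Of the genes called lower with a log2 fold change of -0.5 or below, the largest falls were those of Trp53inp1, a p53-inducible protein that binds ATG8 proteins (log2 fold change -1.18, SE 0.15), Deptor, an inhibitor of mTOR (-0.93, SE 0.14), Sesn1, a sestrin that restrains mTORC1 (-0.82, SE 0.10), and Atg16l2, a relative of Atg16l1 (-0.66, SE 0.12), with adjusted p-values up to 7.28e-04. Prkab2, a subunit of AMPK, had a log2 fold change of -0.53 (SE 0.24) and did not pass the test (adjusted p = 0.106).

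The sets are small, and their counts stand beside the 18.7% higher and 15.7% lower of all tested genes. By set, mTORC1 and AMPK control had 1 gene higher and 2 lower of 18. The transcription factors had 3 higher (Nfe2l2, Hif1a and Mitf, log2 fold changes 0.27, 0.22 and 0.19) and 1 lower of 8, the lower one being Tfeb, the main activator of lysosomal and autophagy genes, at 348, 335 and 343 counts in control and 181, 218 and 263 with LPS. Tfeb fell by 0.50 on the log2 scale (SE 0.12, adjusted p = 0.00361). Further core and membrane factors had 3 higher and 5 lower of 12, and fusion with lysosomes 1 higher and 4 lower of 14, among them Stx17, the autophagosomal syntaxin (-0.32). Further receptors and their kinases had 3 higher and 2 lower of 15, with Tbk1, the kinase that phosphorylates optineurin and p62, at 0.46 and Pink1, the kinase that marks damaged mitochondria, at -0.36. Of the 25 pathway calls 17 held with each library left out in turn, 7 higher and 10 lower. The matching share of all called genes is not given. The higher gene of the mTORC1 and AMPK set was Akt1s1, whose libraries overlapped (log2 fold change 0.21) and whose call held without control replicate 1 but was lost without any 1 of the other libraries (highest adjusted p 0.14). The Stx17 call was lost without control replicate 1 or LPS replicate 2 (highest adjusted p 0.0897) and the Pink1 call without control replicate 3 or LPS replicate 1 (highest adjusted p 0.0678), while the log2 fold changes stayed between -0.39 and -0.24 for Stx17 and between -0.44 and -0.30 for Pink1. The transcription factors, Stx17, Tbk1 and Pink1 were named after their values were seen.

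**Figure D5:**
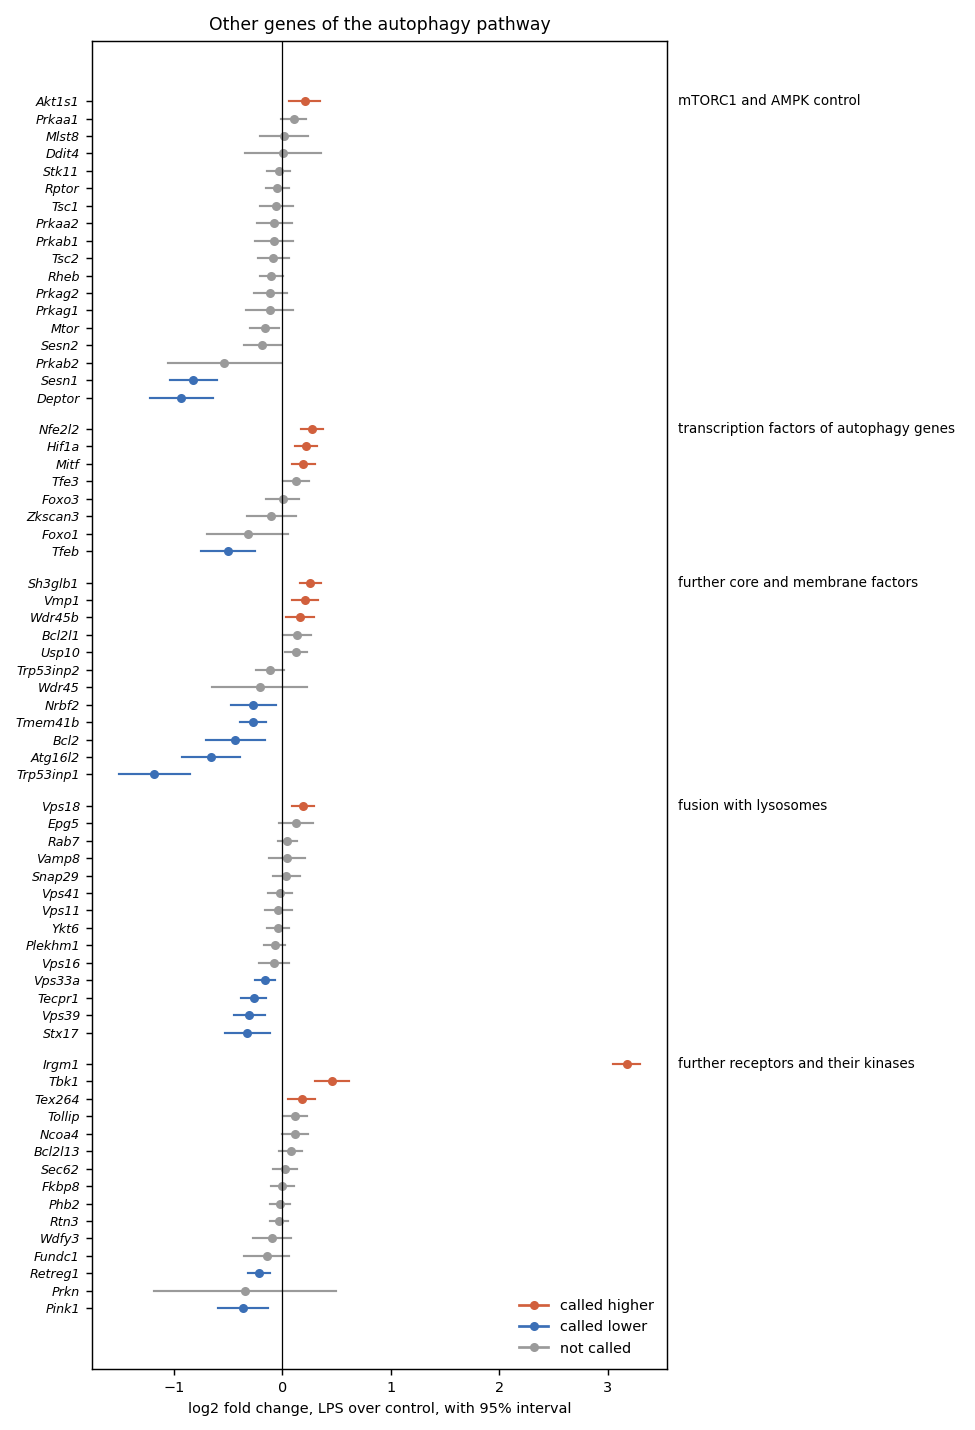
The log2 fold change of LPS over control (horizontal axis) with its 95% interval is plotted for the 67 other pathway genes tested, grouped by set, with genes called higher in orange, called lower in blue and not called in grey. Irgm1 stands at 3.18, while Trp53inp1, at -1.18, is the lowest.

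The directions above are relative to the bulk of genes as TMM scaling sets it. TMM factors were 1.034 to 1.036 in control and 0.9646 to 0.9699 with LPS, so that with total counts alone the median log2 fold change of all tested genes moved from 0.00 to -0.09. On that scale 6 members were higher and 10 lower, instead of 9 and 4. These were 41.0% of the members, beside 39.5% of all tested genes, of which 1520 were higher and 3342 lower. Atg16l1, Gabarapl1 and Tax1bp1 were no longer called, and Atg2a, Atg3, Calcoco1, Gabarap, Rubcn and Ulk2 were called lower. Sqstm1, Optn, Atg4a, Atg13, Nbr1 and Bnip3l stayed higher, and Ulk1, Atg9a, Bnip3 and Wipi1 stayed lower. Against a fold of at least 1.2 (glmTreat in edgeR), Sqstm1, Optn, Atg13 and Atg4a remained, all higher.

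Some members share exon bases with another annotated gene, and the use of strand in counting is not stated. Sqstm1 shares 17.3% of its exon bases with the antisense gene Mrnip, which had 38 to 60 counts in control and 18 to 26 with LPS. Bnip3 shares 22.3% with the antisense Gm45507 (0 counts in every library), Gabarapl1 28.3% with the antisense 1700101I11Rik (at most 2 counts), and Atg9a 31.8% with Gm29253 on the same strand (at most 2 counts). Becn1 shares 43.9% with the antisense Cntd1, which had at most 7 counts. Atg4d shares 19.3% with the antisense Kri1, which had 469 to 527 counts, about as many as Atg4d itself (481 to 528). How reads in shared bases were assigned was not tested.

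Total counts were 16363767 to 17956772 per library. Of 14 microglia and macrophage markers 10 had over 100 counts in every library, while Aif1, P2ry12 and Sall1 had at most 10. Among the microglial markers Spi1, Ptprc and Csf1r were called higher with LPS (log2 fold changes 0.58, 0.24 and 0.16) and Trem2 lower (-0.52). Of the markers of other brain cells, Mbp and Aldh1l1 were lower (-0.34 and -0.29) and Gja1 higher (0.18), while Gfap, Aqp4, Mag, Mobp and Mog had at most 10 counts in every library. Their part in the members' results was not tested. Control replicates 2 and 3 stood apart by liver transcripts, with 293 and 486 summed counts over 12 hepatocyte markers beside 4 to 13 in the other 4 libraries, and 5 fibroblast markers summed to 192, 8 and 133 in control and 122, 13 and 13 with LPS. Fga, Apob, Trf and Serpina1a were at 10 counts or fewer in every library. Without both of these control libraries, a fit that assumes the lone control to vary like the LPS libraries called 8 members (20.5%), 6 higher and 2 lower, beside 21.9% of the 12940 genes tested in that fit. Sqstm1 kept a log2 fold change of 1.16, Optn 0.69, Atg4a 0.58 and Atg13 0.38, and the calls of Atg16l1, Atg9a, Bnip3l, Gabarapl1 and Wipi1 were lost, with log2 fold changes of 0.26, -0.31, 0.19, 0.19 and -0.47 (0.29, -0.36, 0.22, 0.17 and -0.44 with all libraries) and adjusted p-values of 0.12, 0.0579, 0.0573, 0.0976 and 0.163.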

How the data were processed

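RNA-seq of N9 microglia gave 6 libraries, 3 control and 3 LPS, grouped by the labels. Sequencing and its bioinformatics were performed for the authors by Novogene, and the submitters' processing notes name featureCounts 1.5.0-p3 and mm10. The aligner and the use of strand are not given in the sources used here. The authors deposited whole-number read counts per gene without normalization. Their table of fold changes and p-values for 20014 genes, with 18 further columns per library and 2 of group means, was not used.

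Counts were tested with edgeR 4.0.16 (R 4.3.3), quasi-likelihood, TMM, filterByExpr, prior count 0.125, no covariate, with Benjamini-Hochberg adjustment over 12296 genes. SE is the log2 fold change divided by the square root of F. P-values in the report are from this fit unless DESeq2, an alternative setting or a left-out library is named beside them. The smallest exact two-sided permutation p for 3 against 3 would be 0.1. CPM used TMM-scaled totals, and gene lengths are those of the count table. Counting precision does not cover PCR duplicates. Total counts were 16363767 to 17956772, and libraries within a group differed beyond sampling noise (chi-square per gene 3.61 to 7.82).

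Every member is reported by role. Counts by library and full statistics go to called members with an absolute log2 fold change of at least 0.5 and to the ATG8 genes, and up to 12 called pathway genes of that size are named. Members and lists were chosen with earlier results of these data known. Alternatives were DESeq2 1.42.0, RLE factors, other filters, robust dispersion, glmTreat, a replicate block, a prior count of 2 and each library left out. Total counts without factors, and leaving out control replicates 2 and 3 together, were chosen after seeing the data. Promoters are from RefSeq (GRCm38.p6), and exon overlaps from GENCODE M21, whose coordinates equalled those of 38 members. Some marker genes are not reported here.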

Additional observations from a re-analysis of the deposited data

How the results depend on the processing

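RLE factors, a filter at a mean of 10 counts, a prior count of 2 and the replicate block each left 13 members called (33.3%), beside 34.3% of the genes tested in those fits and 36.4% with the block. With the replicate number as a block 9 members were higher and 4 lower, as without it. Deviations of same-numbered libraries correlated at 0.136, 0.0588 and -0.00415, so the numbers were not taken as pairs. DESeq2 called 11 members (8 higher, 3 lower; 28.2%, beside 25.8% of 13916 genes), edgeR without the filter 12 (30.8%, beside 19.8% of 22311 genes, with infinite prior degrees of freedom), and robust dispersion 14 (35.9%, beside 35.2%).

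Against a fold of 1.2, 1026 genes were higher and 616 lower of all tested, 4 members were higher and 0 lower (4 in all, or 10.3%, beside 13.4% of all tested genes), and 2 pathway genes were higher and 4 lower. With total counts without factors, 1520 genes were higher and 3342 lower, beside 2294 and 1927 with TMM. On that scale 10 members were lower, and 4 pathway genes were higher and 27 lower, beside 11 and 14. Without both control replicates 2 and 3, 1151 genes were lower, 8 members were called with 2 of them lower, and 5 pathway genes were higher. With each library left out in turn, 9 to 13 members were called (23.1% to 33.3%, beside 27% to 32.5% of the genes tested in each fit), 7 to 10 higher and 2 to 3 lower, with 2 lower without control replicate 3 and without LPS replicate 3. Pathway genes numbered 7 to 11 higher, with 7 without control replicate 3, and 12 to 14 lower. Of the 13 called members 9 were called in all 6 of these fits, and the matching share of all called genes is not given.

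Log2 fold changes that changed sign all belonged to members not called. With total counts they were Rb1cc1 (-0.0293), Wipi2 (-0.0465), Atg4c (-0.0613), Atg4d (-0.0219) and Atg10 (-0.0189). Without control replicates 2 and 3 they were Pik3r4 (0.1068), Atg14 (0.0229), Atg2b (0.1127), Wipi2 (-0.0463), Atg4d (-0.0200), Atg7 (0.0125) and Map1lc3b (0.0130). With 1 library left out, the ranges that crossed 0 were Atg101 (-0.1086 to 0.0190), Becn1 (-0.0499 to 0.0323), Atg14 (-0.1273 to 0.0118), Uvrag (-0.0453 to 0.0359), Atg2b (-0.1427 to 0.0013), Atg4c (-0.0190 to 0.1065), Atg5 (-0.0816 to 0.0557), Atg7 (-0.0786 to 0.0197), Atg12 (-0.0779 to 0.0343), Map1lc3b (-0.0701 to 0.0189) and Gabarap (-0.0445 to 0.0089). The total-count shift follows from its construction. For the others the cause was not tested. Of the other log2 fold changes of members, 199 with 1 library left out and 389 under the other settings kept their direction and their side of the threshold. At this depth the widest 95% bounds of the 26 members not called were -0.46 and 0.37.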
